A study of Sus scrofa with 3 samples.

Results

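The heat shock, chaperone and endoplasmic reticulum (ER) folding genes of the pig lung are described here from 3 microarrays. Members were chosen by gene symbol alone: HSP, DNAJ, CCT, BAG and PDIA symbols, together with TCP1, CRYAB, CALR, CANX, FKBP2, FKBP10, FKBP11, P4HB, HYOU1 and SERPINH1 where the array names them. The rule found 67 genes, read by 114 probe sets, among 6765 named genes read by 10069 probe sets. By textbook location 39 are cytosolic, 18 belong to the ER, 6 to mitochondria, and 4 are nuclear or of another role.

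The arrays are Affymetrix porcine chips, on which a probe set is a group of short probes against the 3' end of a transcript, hybridised with RNA from minipig lung. The operated (left) lung underwent ischemia-reperfusion: its pulmonary artery was blocked transiently while the bronchus, and so ventilation, was spared. The non-operated (right) lung comes from a minipig subjected to that surgery, and the sham lung from a sham minipig. A single array stands for every group, and the differences below therefore carry neither p-values nor standard errors, and no replicate checks them. The sources used here give no occlusion length, sampling time, age, sex or genotype. They also leave unstated whether both ischemia-reperfusion lungs came from 1 animal and whether RNA was pooled.

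Molecular chaperones hold and fold other proteins. In the cytosol, HSP70 binds exposed hydrophobic stretches with the help of J proteins (HSP40), which load its clients, and of BAG proteins, which release them. HSP90 finishes signalling proteins, small heat shock proteins hold unfolding ones, and the ring-shaped CCT chaperonin folds actin and tubulin. In the ER, BiP, disulfide isomerases and the lectin chaperones fold secreted and membrane proteins, which the surfactant-producing and antibody-producing cells of the lung make in quantity. Heat shock factor 1 induces many cytosolic members under protein-damaging stress, whereas the unfolded protein response induces many ER members.

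Values are MAS5 signals on the log2 scale, as deposited. MAS5 summarises each probe set separately, so signals of different genes are not set against each other. A signal at or below its array's median, 7.31 for the operated, 7.31 for the non-operated and 7.33 for the sham array, was treated as at the floor. A ratio with 1 side at the floor is a lower bound on the fold. Of the 67 genes, 57 lay above the floor on all 3 arrays, 5 on some and 5 on none (HSPBP1, DNAJC6, HSPA12A, HSPB3 and HSPB6). A gene was counted as higher or lower past a 2-fold ratio, 1 on the log2 scale. For scale, log2 ratios of different probe sets of the same gene differed with a pooled SD of 0.44 in either lung against sham over 1004 and 1008 genes, an error that holds no animal or array variation.

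Lung identity was checked on surfactant and epithelial genes. SFTPC stood at 14.52 in the operated, 14.55 in the non-operated and 14.44 in the sham lung, and SFTPA1 at 12.23, 11.97 and 12.13. The other 4 genes of that list were above sham in both lungs, with log2 ratios for the operated and non-operated lung of 1.23 and 0.11 (SFTPB), 1.06 and 1.37 (AQP5), 0.67 and 0.77 (SFTPD), and lower bounds of 0.81 and 0.94 (AGER). Operated against non-operated, SFTPB was at 1.13. The arrays differed in other ways that touch what follows. The single Y-linked gene measured, EIF1AY, had linear signals of 1893 and 1646 in the operated and non-operated lungs and 1.61 in the sham lung, so procedure and the sex of the animal cannot be told apart. Summed linear signals were 1818 and 2234 against 16471 in sham for 9 markers of dividing cells, 1506 and 1274 against 8096 for 3 B-cell markers, 20758 and 23121 against 10151 for 7 smooth muscle markers, and 24567 and 26489 against 8147 for 8 endothelial markers, with the operated lung first in each pair. In whole tissue, fewer cells of a type and less RNA per cell cannot be told apart.

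Against sham, the operated lung had more signal for part of the HSP70 system and for CRYAB, and less for HSPA14 with DNAJC2, for DNAJC9, and for the ER proteins PDIA6 and DNAJB11. Of 61 genes above the floor on at least 1 of the 2 arrays, 6 were at least 2-fold higher (CRYAB, DNAJB4, BAG3, HSPA6, HSP70.2 and DNAJA4), or 9.84%, against 8.65% of all 5097 genes counted. The 5 genes at least 2-fold lower (HSPA14, PDIA6, DNAJC9, DNAJC2 and DNAJB11) make 8.20%, against 8.79% of all genes. Both shares are near the background, so the family as a whole was not set off from other genes by its counts. Its median log2 ratio of -0.12 was also close to the -0.11 of all genes.

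The non-operated lung was read against the same sham array, and its values are therefore not a second measurement of these differences. On the higher side 7 of 62 genes counted passed 2-fold (CRYAB, DNAJB4, HSPA6, HSP70.2, BAG3, DNAJB1 and HSPB1), or 11.3%, against 8.96% of 5113 genes. On the lower side 5 passed (HSPA14, DNAJC2, DNAJB11, PDIA6 and CCT7), or 8.06%, against 8.55% of all genes. The median log2 ratio was -0.11 for the family and -0.10 for all genes. All 8 genes that passed on the higher side in either lung are cytosolic. Cytosolic genes were also 33 of the 61 members counted in the operated lung and 34 of the 62 in the non-operated lung. On the lower side 2 of the 5 genes in the operated lung and 3 of the 5 in the non-operated lung were cytosolic.

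Cytosolic and ER members were compared by their medians. The cytosolic genes above the floor had a median log2 ratio of 0.03 over 33 genes in the operated and 0.07 over 34 genes in the non-operated lung against sham. The ER genes had a median of -0.25 in the operated and -0.19 in the non-operated lung, each over 18 genes. Cytosolic minus ER, the medians differed by 0.28 and 0.26, and the sign of the cytosolic median itself turned with the floor used, to -0.12 and -0.08 at a floor of the 75th percentile. The cytosolic median hides a wide spread: ratios ran from -1.37 (HSPA14) to 1.96 (CRYAB) in the operated lung and from -1.61 to 2.34 for the same genes in the non-operated lung. ER members ran from -1.34 (PDIA6) to 0.42 (DNAJC3) in the operated lung and from -1.10 (DNAJB11) to 0.54 (SERPINH1) in the non-operated lung. On the higher side 0 of 18 passed 2-fold in either lung, against 8.65% and 8.96% of all genes. On the lower side 2 of 18 passed in each lung, against 8.79% and 8.55% of all genes. With so few genes these counts cannot be told from the shares of all genes.

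**Figure D1:**
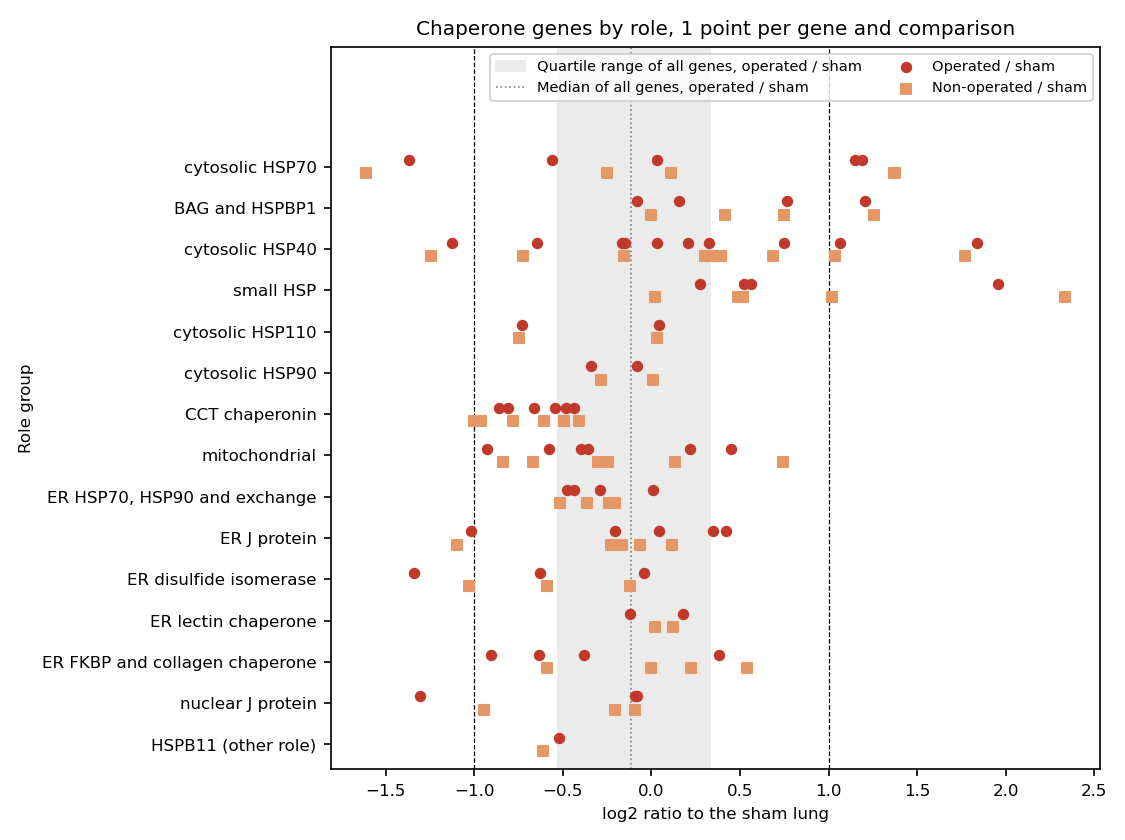
Log2 ratio to sham (x axis) of each chaperone gene counted, by role group (y axis), for the operated lung (circles) and the non-operated lung (squares), which share the sham array. Dashed lines mark 2-fold and the grey band runs from the lower to the upper quartile of all genes. All 6 CCT subunits lie left of 0, the small heat shock proteins counted lie right of it, and the cytosolic HSP70 and HSP40 groups spread over both sides.

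Among cytosolic HSP70 proteins, the heat-inducible forms passed 2-fold against sham and the constitutive HSPA8 did not. HSP70.2, the inducible HSP70 of the pig MHC region that the RefSeq table also lists as HSPA1A and HSPA1B, had a signal of 13.42 in the operated, 13.64 in the non-operated and 12.27 in the sham lung. That is 2.22-fold higher in the operated and 2.59-fold higher in the non-operated lung. Its further 2 probe sets gave log2 ratios of 1.37 and 1.46 in the operated lung and 1.65 and 1.89 in the non-operated lung. HSPA6, in humans a strictly stress-induced HSP70, stood at 8.86, 9.04 and 7.67, or 2.28-fold and 2.59-fold higher, and with a pseudocount of 100 its log2 ratio in the operated lung was 0.89, below 2-fold. The RefSeq table also places HSP70.2 inside the span of HSPA1L, a close relative. Whether probes for these similar genes read each other's transcripts was not tested. The constitutive HSC70 gene HSPA8 had 14.02 in the operated, 14.10 in the non-operated and 13.99 in the sham lung, and its 4 probe sets had ratios from 0.02 to 0.80 in the operated lung. HSPA2, an HSP70 best known from the testis, was at -0.56 and -0.25, both within 2-fold.

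HSPA14 ran the other way within the same family. It had 9.35 in the operated and 9.11 in the non-operated lung against 10.72 in sham, which is 2.58-fold and 3.05-fold lower. HSPA14 and the J protein DNAJC2 form the ribosome-associated complex, which meets new chains as they leave the ribosome. DNAJC2 had 9.51 in the operated and 9.38 in the non-operated lung, against 10.63 in sham, or 2.18-fold and 2.37-fold lower. Both partners were thus lower than in sham on both arrays, and the second probe set of DNAJC2 gave -1.11 and -1.66. HSPA14 has 1 probe set.

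In the group of BAG genes and HSPBP1, the 4 genes counted were on the higher side or near 0. BAG3, which links HSP70 to small heat shock proteins and to selective autophagy, had 11.40 in the operated and 11.46 in the non-operated lung and 10.20 in sham, 2.30-fold and 2.39-fold higher. The further BAG3 probe set was below the floor on all arrays, and the mean of both gave 0.57 and 0.17, below 2-fold. BAG5 was within 2-fold at 0.76 and 0.75, and BAG6, which guards proteins bound for the ER membrane, at 0.16 and 0.41. BAG1, the founding member of the family, was at -0.08 and -0.004. Of the 5 genes of this group HSPBP1 had no value above the floor.

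J proteins of the cytosol were mixed, with 10 of 11 above the floor. DNAJB4, an HSP70 partner of the class that handles stress-damaged clients, had 12.75 in the operated and 12.68 in the non-operated lung against 10.92 in sham, a 3.58-fold and 3.40-fold difference to the higher side. DNAJB1, the classical heat-induced HSP40, had 10.59, 10.88 and 9.84, so it was 1.68-fold higher in the operated lung and 2.05-fold higher in the non-operated lung. DNAJA4 had 9.09, 8.71 and 8.03, or 2.09-fold and 1.61-fold higher. Each passed 2-fold in 1 lung only, and operated against non-operated the log2 ratio was -0.29 for DNAJB1 and 0.38 for DNAJA4.

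DNAJC2, described above, is the cytosolic J protein that passed 2-fold on the lower side, DNAJC6 had no value above the floor, and the remaining 6 were within 2-fold of sham. DNAJA1, a farnesylated partner of HSC70, had 12.77, 12.78 and 12.45, a log2 ratio of 0.33 in each lung, while its second probe set gave 1.26 and 1.07. DNAJA2 was at -0.65 and -0.72, DNAJB2, best known from neurons, at -0.17 and 0.30, and DNAJB6, which holds back aggregation, at 0.03 and 0.39. Further DNAJB6 probe sets gave 0.54 and -0.45 in the operated lung. In the non-operated lung they gave 0.56 and -0.82, the latter a lower bound on the fold. DNAJC24, needed to make diphthamide on elongation factor 2, was at -0.15 and -0.15. The vesicle protein gene DNAJC5 was at the floor in sham with lower bounds of 0.21 and 0.36.

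The highest ratio of the family in either lung belonged to a small heat shock protein. CRYAB, the alpha B-crystallin that binds desmin and other filaments in muscle, had 9.63 in the operated and 10.01 in the non-operated lung against 7.68 in sham, 3.88-fold and 5.05-fold higher. The sham signal lay close to its floor of 7.33. With a floor at the 75th percentile it was at the floor, and the log2 ratios of 0.38 and 0.76 are lower bounds on the fold. With all probe sets averaged the sham value was again at the floor, and the lower bounds were 0.51 and 1.21. The second CRYAB probe set, below the floor on all 3 arrays, was not used. HSPB1 (HSP27), which protects actin filaments, had 10.20, 10.69 and 9.67, or 1.44-fold and 2.02-fold higher. HSPB2, the next protein-coding gene to CRYAB in the RefSeq table of the pig, had 8.36, 8.60 and 8.08, within 2-fold at 0.28 and 0.52. HSPB8, the partner of BAG3, was at the floor in sham (6.26) and above it in the operated (7.89) and non-operated (7.82) lung, hence at least 1.48-fold and at least 1.40-fold higher. HSPB7 was at the floor except in the non-operated lung, where it had 7.35, and HSPB3 and HSPB6 were at the floor throughout. Several of these genes are typical of muscle, and the smooth muscle markers moved the same way: ACTG2 was at 2.54 and 2.31, TAGLN at 1.67 and 1.71, and 6 of 6 above the floor had ratios above 0 in either lung. Of 10 striated muscle markers 8 were at the floor on both arrays of each comparison with sham. PLN, which smooth muscle also expresses, was higher, with lower bounds of 1.54 and 1.61. TNNI3, above the floor on all 3 arrays, was at 0.04 and 0.51. The part of muscle content in the CRYAB and HSPB values was not tested.

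Of the HSP90 and HSP110 genes, 0 of 4 passed 2-fold against sham, where 8.55% to 8.96% of all genes passed in each direction. HSP90AA1, the stress-responsive cytosolic form, had 13.61 in the operated, 13.70 in the non-operated and 13.69 in the sham lung. Its 5 probe sets lay on both sides of 0, from -0.65 to 0.46 in the operated lung. HSP90AB1, the constitutive form, was at -0.34 and -0.28. HSPH1, an HSP110 that heat also induces, had 12.46, 12.45 and 12.41, ratios of 0.05 and 0.03. HSPA4, the other HSP110 gene measured, was at -0.73 and -0.75, with a second probe set at -0.07 and -0.25.

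Of the CCT subunits, 0 of 6 passed 2-fold against sham in the operated and 1 in the non-operated lung, and all ratios were below 0. TCP1, CCT2, CCT4, CCT6A, CCT7 and CCT8, the 6 subunits on the array, were all below sham in both lungs, with a median of -0.60 in the operated and -0.69 in the non-operated lung. For comparison, 57.7% and 56.6% of all genes had ratios below 0, and 8.79% and 8.55% were at least 2-fold lower. CCT7 had 10.67, 10.53 and 11.53, which is 1.81-fold lower in the operated and 2.003-fold lower in the non-operated lung, and it was the 1 subunit to reach 2-fold. That call ended under 4 of 9 alternatives, with values down to -0.90. CCT4 had 12.29, 12.32 and 13.10, and TCP1 had 11.24, 10.94 and 11.90. The smallest differences were -0.43 (CCT2) in the operated and -0.41 (CCT8) in the non-operated lung, and the second CCT6A probe set above the floor gave -0.75. All 6 remained below 0 in both lungs under 9 alternative scalings, floors, filters and probe set choices. Prefoldin, which hands actin and tubulin to CCT, was measured through 5 subunits, and 5 of 5 were below 0 with medians of -0.26 and -0.24 and 0 past 2-fold. The markers of dividing cells moved in the same direction, with a median of -2.92 and -2.69 over 9 genes, and their part in the CCT values was not tested.

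Of the mitochondrial members, 0 of 6 passed 2-fold against sham, a group too small to set apart from the 8.55% to 8.96% of all genes. HSPD1 (HSP60) and HSPE1 (HSP10), the chamber and lid of the mitochondrial chaperonin, are neighbouring genes in the RefSeq table and were both below sham. HSPD1 had 12.85, 12.75 and 13.42, ratios of -0.58 and -0.67, and HSPE1 had 12.52, 12.61 and 13.44, ratios of -0.93 and -0.84. HSPA9, the mitochondrial HSP70 that pulls precursors through the inner membrane, was at -0.36 and -0.30. DNAJC11 was at -0.40 and -0.24. DNAJA3, a mitochondrial J protein, lay on the other side at 0.45 and 0.74, as did DNAJC19, a part of the import motor, at 0.22 and 0.13.

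In the ER, PDIA6 and DNAJB11 were the genes past 2-fold against sham. PDIA6, a disulfide isomerase that works with BiP, had 12.07 in the operated and 12.39 in the non-operated lung against 13.41 in sham, or 2.53-fold and 2.04-fold lower. DNAJB11, a J protein that brings unfolded chains to BiP, had 9.16, 9.08 and 10.18, or 2.03-fold and 2.14-fold lower. Each was measured by 1 probe set. DNAJB11 fell short of 2-fold in both lungs under 3 of 9 alternatives, and PDIA6 in the non-operated lung under 1 of 9, at -0.92. For DNAJB11 these include the 75th percentile floor. There the signal of both lungs lay at the floor, so the ratio is a lower bound on the fold.

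The core of the ER machinery was within 2-fold by the probe set that stood for each gene. BiP itself, HSPA5, had 13.79, 13.84 and 14.08, ratios of -0.29 and -0.24. HSP90B1 (GRP94), the HSP90 of the ER, was at -0.48 and -0.52, with its second probe set at -0.71 and -0.66. HYOU1, an HSP110-like exchange factor for BiP, was at -0.44 and -0.36, and HSPA13 at 0.01 and -0.20. PDIA4 was at -0.63 and -0.59, and PDIA3, which serves glycoproteins held by the lectin chaperones, at -0.04 and -0.12. A further PDIA3 probe set gave -0.48 and -1.08, past 2-fold in the non-operated lung, and another gave 0.16 and 0.18. A further PDIA4 probe set, above the floor in sham alone, gave -0.98 in each lung, a lower bound on the fold. The lectin chaperones were near 0, with CALR at -0.12 and 0.02 and CANX at 0.18 and 0.12. CANX had 12.49, 12.44 and 12.32 on the 3 arrays. Further CANX probe sets gave 0.56, 0.44 and 0.02 in the operated and 0.18, 0.05 and -0.05 in the non-operated lung. Another, above the floor in sham alone, gave -0.16 in each lung, a lower bound on the fold.

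The remaining ER members include both directions. DNAJB9, a target of the unfolded protein response that represses its sensor IRE1, had 10.59, 10.18 and 10.24, ratios of 0.35 and -0.06. Further DNAJB9 probe sets gave 0.81 and 0.18 in the operated lung and 0.18 and -0.17 in the non-operated lung. DNAJC3 (p58IPK), which restrains the kinase PERK, was at 0.42 and 0.12, DNAJB14 at -0.20 and -0.23 and DNAJC14 at 0.04 and -0.17. Their second probe sets gave -0.02 and -0.23 for DNAJC3, and 0.37 and 0.09 for DNAJB14. For DNAJC14 the second gave -0.79 in each lung, a lower bound on the fold. FKBP11, a prolyl isomerase abundant in secretory cells, had 10.86, 10.91 and 11.50, ratios of -0.63 and -0.59, and FKBP2 was at -0.38 and -0.003. SERPINH1 (HSP47), the collagen chaperone, was at 0.38 and 0.54. Plasma cells, which are rich in ER, were followed by 3 markers, all below 0 (JCHAIN at -0.51 and -0.49, SDC1 at -0.34 and -0.07, TNFRSF17 at -1.66 and -1.27). The summed signal of the 3 was 13570 and 13923 against 19502 in sham, most of it from JCHAIN. The part of plasma cells in the ER values was not tested.

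Nuclear members and one gene of another role complete the family. DNAJC9, a histone chaperone, had 7.36 in the operated and 7.72 in the non-operated lung against 8.66 in sham, or 2.47-fold and 1.92-fold lower, with the operated signal next to its floor of 7.31. The markers of dividing cells given above moved in the same direction as DNAJC9. DNAJC8, a splicing-associated J protein, had 10.46, 10.33 and 10.54. DNAJC17 was above the floor in sham alone. HSPB11, which matches by its letters but is a component of the intraflagellar transport machinery of cilia, had 8.62, 8.53 and 9.14, ratios of -0.52 and -0.61.

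**Figure D2:**
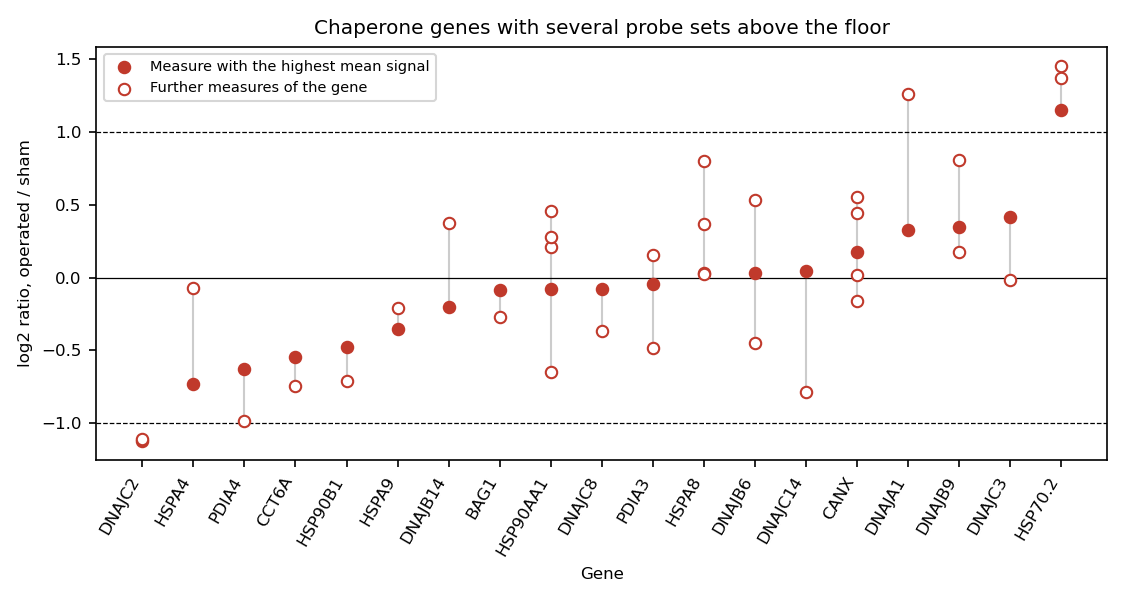
Log2 ratio of operated against sham lung (y axis) for each probe set above the floor of the 19 chaperone genes with several such probe sets (x axis), the one with the highest mean signal filled. DNAJC2 and HSP70.2 lie beyond 2-fold by all their probe sets, while those of DNAJB14, HSP90AA1, PDIA3, DNAJB6, DNAJC14, CANX and DNAJC3 lie on both sides of 0.

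Probe sets of the same gene give the one internal check of these ratios. In the operated lung 19 member genes had several probe sets above the floor, and in 12 of them all were on the same side of 0, or 63.2%, against 75.3% of 1004 genes over the whole array. In the non-operated lung it was 11 of 19. No member had probe sets past 2-fold in both directions. Of the genes past 2-fold against sham, HSP70.2 and DNAJC2 could be checked in this way, and all their probe sets passed 2-fold in both lungs. The others rest on 1 probe set above the floor.

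Regulators and partners outside the family were followed as 6 further lists. Over all genes, 8.55% to 8.96% passed 2-fold against sham in each direction. Of 16 heat shock factors and HSP90 or HSP70 co-chaperones, 1 was past 2-fold on the higher side in each lung and 1 on the lower side in the non-operated lung, with medians of -0.10 and -0.28. The gene on the higher side was FKBP5, an immunophilin of steroid receptor complexes and itself induced by glucocorticoids, with 13.18 in the operated, 13.34 in the non-operated and 10.99 in the sham lung. Its counterpart FKBP4 was at -0.78 and -1.10. The transcription factors HSF1 and HSF2 were at -0.01 and 0.01 in the operated lung and -0.36 and -0.33 in the non-operated lung. The HSP90 co-chaperone PTGES3 (p23) was at -0.78 and -0.91.

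Genes of the unfolded protein response and ER degradation also showed no common direction. Of 13 measured, 2 were at least 2-fold higher and 1 lower in the operated lung, and 1 higher and 0 lower in the non-operated lung, with medians of -0.04 and 0.10. ATF3, a stress transcription factor, was at 1.78 and 1.79, and PPP1R15A (GADD34), which reverses the translation block, at 1.29 and 0.82. SDF2L1, an ER partner of DNAJB11, was at -1.07 and -0.95, and XBP1, a master regulator of the ER response, at -0.06 and -0.03. The arrays read transcript levels, and the activity of XBP1, HSF1 and HSF2 was not measured. Of 14 other ER folding and oxidation enzymes, 0 were higher and 1 lower in each lung: PRDX4, the ER peroxiredoxin, at -1.10 and -1.05. The medians of these enzymes were 0.17 and 0.13. Of 19 translocon and signal peptidase genes above the floor, 0 were higher and 1 lower in each lung, SRP54 of the signal recognition particle at -1.06 and -1.24, with medians of -0.27 and -0.18. The 4 collagen hydroxylase genes measured were within 2-fold.

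The last comparison sets the occluded side against the other lung, and the family, like all genes, hardly differed between them. Of 61 genes counted, 60 lay within 0.5 of 0 on the log2 scale. All 4944 genes had a lower quartile of -0.17 and an upper quartile of 0.13, so this closeness is not particular to the family. The share of all genes within 0.5 was not counted. The median was -0.04 for the family and -0.02 for all genes. On the higher side 0 of 61 passed 2-fold, against 0.0607% of all genes. On the lower side 1 of 61 passed, against 0.182% of all genes, which is 9 genes. That gene was FKBP10 (FKBP65), a prolyl isomerase and collagen chaperone, with 7.28 in the operated, 8.44 in the non-operated and 8.22 in the sham lung. The operated signal was at the floor, so FKBP10 was at least 2.19-fold lower than in the non-operated and at least 1.87-fold lower than in the sham lung.

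Other differences between the lungs were small. HSPB1 was at -0.49, DNAJB2 at -0.47, CRYAB at -0.38 and FKBP2 at -0.38, while DNAJB9 was at 0.41, DNAJA4 at 0.38 and DNAJC3 at 0.30. The cytosolic median was -0.05 and the ER median -0.01. The 5 ER J proteins ran from 0.02 to 0.41, and the 4 genes of the ER prolyl isomerase and collagen chaperone group from -1.13 to -0.04, where 52.8% of all genes were below 0. The 4 collagen hydroxylases were below 0 with 0 past 2-fold, PLOD3 at -0.64 and CRTAP, a subunit of the prolyl 3-hydroxylation complex, at -0.56. The pooled SD between probe sets of a gene was 0.23 in this comparison. The single genes named here, picked after their values were seen, lie beyond it. Divided by the root of the number of genes, this SD was 0.039 for the cytosolic and 0.054 for the ER median. The cytosolic median lies beyond that value and the ER median within it, where all genes had a median of -0.02. The SD holds no animal or array variation.

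**Figure D3:**
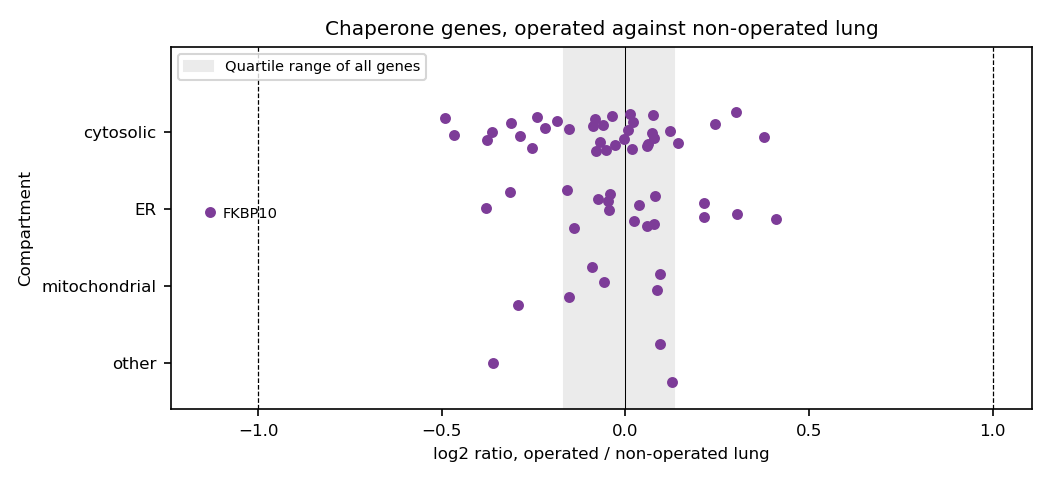
Log2 ratio of operated against non-operated lung (x axis) for the 61 chaperone genes counted, by compartment (y axis), with the quartile range of all genes in grey and 2-fold dashed. FKBP10 alone lies beyond 2-fold, at -1.13, a lower bound on its fold because its operated signal is at the floor.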

How the data were processed

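Lung RNA was isolated with TRIZOL and biotin-labelled with a GeneChip 3' IVT Express kit, per the labels' protocols. The deposited table holds 1 log2 signal per probe set and array, made by the authors with MAS5 per the submitters' processing notes, with version and scaling target not given in the sources used here. That the unit is log2 follows from the values. The linear mean after trimming 2% from each end was 496 to 497 on the 3 arrays, so no further scaling was applied.

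After 64 controls were left out, 23935 probe sets remained. Names came from the platform annotation, and 66 of 67 member identifiers matched RefSeq (Sscrofa11.1). The probe set with the highest mean signal stood for each gene. Both-sides-at-floor genes were left out of a comparison and values at the floor set to it. With 1 array per group there is no test. Members and lists were chosen with earlier results of these data known, and HSP70.2 was placed among cytosolic HSP70 genes after the array's symbols were read. Values are printed for members past 2-fold, for the member of highest mean signal in each role group, and otherwise mostly as ratios. From further lists at most 4 genes past 2-fold per comparison are named by rule. Other array values and other list genes were chosen after they were seen. No sequences were used. The steps were tested on simulated data. Python 3.11.15, pandas 2.3.3 and numpy 2.4.6 were used.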

Additional observations from a re-analysis of the deposited data

Results flagged for a closer look

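FKBP10 differed in direction between the lungs when each was read against sham. Its log2 ratio was -0.91 in the operated lung, as a lower bound on the fold, and 0.22 in the non-operated lung, and the operated against non-operated ratio was -1.13. The difference was not tested, since each lung is 1 array and the operated signal lies at the floor.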

How the results depend on the processing

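No paired analysis was possible because each group is 1 array, and for the same reason no array could be left out. Counts of genes past 2-fold moved by over 1.5 times as follows. Operated against sham, 3 genes were higher with the floor at the 75th percentile or after averaging probe sets, and 3 were lower at that floor or with a pseudocount of 100. Non-operated against sham, 3 were lower with the pseudocount and 2 relative to the median of all genes. Operated against non-operated, 2 were lower with no floor and 0 at the 75th percentile floor or with the pseudocount. Leaving out HSPB11 moved no count by over 1.5 times.

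For medians, a shift was counted when it exceeded the SD between probe sets over the root of the number of genes. The cytosolic median against sham in the operated lung was -0.080 with no floor, -0.12 at the 75th percentile floor, -0.078 with the pseudocount, -0.052 after averaging probe sets and 0.14 relative to all genes. In the non-operated lung it was 0.21 with quantile normalization, 0.23 with no floor, 0.21 at the 25th and -0.079 at the 75th percentile floor, and 0.18 relative to all genes. The sign of the cytosolic median thus depended on the floor in both lungs and, in the operated lung, also on the pseudocount and the averaging. The ER median in the operated lung was -0.13 relative to all genes. The cytosolic minus ER difference was 0.13 at the 75th percentile floor in the operated lung, and 0.42 with no floor and 0.39 at the 25th percentile floor in the non-operated lung. It stayed above 0 against sham in each of these. Operated against non-operated, the mean of all probe sets turned the cytosolic median to 0.0076 and gave a difference of 0.034. The causes were not tested. The setting relative to all genes, and a filter on mean signal, were chosen after seeing the data. DNAJB4, HSP70.2, HSPA14 and DNAJC2 stayed past 2-fold in both lungs under the 9 alternatives, as did PDIA6 in the operated lung. BAG3 was at 0.57 and 0.17 on averaging probe sets. CRYAB was at 0.38 and 0.76 with the floor at the 75th percentile, and at 0.51 in the operated lung on averaging. These CRYAB values are lower bounds on the fold, since its sham value was then at the floor. The pseudocount put HSPA6 (0.89), DNAJA4 (0.84) and DNAJC9 (-0.94) in the operated lung within 2-fold, DNAJB1 (0.96) and HSPB1 (0.93) in the non-operated lung, and FKBP10 (-0.81) between the lungs. CCT7 lost its call under 4 alternatives, DNAJB11 under 3 and PDIA6 in the non-operated lung under 1. HSPA6, DNAJA4, DNAJC9 and FKBP10 gave no value at the 75th percentile floor, nor DNAJA4 on averaging.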
